A study of Mus musculus with 12 samples.

Results

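The genes described here are 34 imprinted genes, chosen by symbol as imprinted genes of the mouse other than Igf2 and Igf2r, out of 32285 genes counted in single-cell RNA sequencing of fetal mouse gonads. From textbook knowledge, 19 of the 34 are expressed from the paternal allele, 13 from the maternal allele and 2 (Gnas and Ube3a) from both alleles in most tissues, and they fall into 17 imprinted domains on 10 chromosomes. The samples were gonads of mouse embryos at E12, and the study compared 3 genotypes in XX and XY embryos with 2 libraries for each of the 6 groups (12 libraries). WT gonads carried both splice forms of the transcription factor WT1, which differ by the presence (+KTS) or absence (-KTS) of the amino acids KTS between its zinc fingers. The -KTS KO embryos were homozygous for an allele that cannot make the -KTS form (-KTS-/-), and the +KTS KO embryos, of the Frasier line, were homozygous for an allele that cannot make the +KTS form. The lines were kept on a mixed B6CBAF1/JRj background, and each allele is present in all cells of the embryo, not in a chosen cell type. Gonads were dissected away from the mesonephros. Each -KTS KO sample pooled gonads of several embryos.

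Genomic imprinting is the expression of a gene from only the maternal or only the paternal copy, set by DNA methylation that is laid down in the germ line of each parent and kept through development. The genes lie in clusters, each governed by an imprinting control region, and many act on growth: among them are growth inhibitors such as Cdkn1c, Grb10 and Phlda2, long noncoding RNAs such as H19, Meg3, Airn and Kcnq1ot1, and placental and neural regulators. In primordial germ cells the parental marks are erased while these cells colonise the gonad, so that gonads at this age hold somatic cells with imprints and germ cells in which the marks are being lost. The counts used here were read from the 3′ ends of transcripts, and they tell neither the parental alleles nor the splice forms of Wt1 apart. A level below is therefore the sum over both alleles.

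Levels are given in CPM: the molecules (UMIs) of a gene, summed over the cells of 1 kind in a library, per 1000000 UMIs of those cells. They are compared within a gene, not between genes. Wherever 2 values are given for a group they are replicate 1 and then replicate 2. Of the 103730 cell barcodes, 78674 were kept, and clusters of cells were named from marker genes. Gonadal somatic cells here are all kept cells outside the clusters named germ, endothelial, erythroid, immune, perivascular or mesonephric duct. The sums over gonadal somatic cells held 57930850 to 100630311 UMIs a library (4218 to 7892 cells), and the sums over germ cells 8376969 to 39742762 UMIs (147 to 1440 cells). The markers of germ cells summed to 5895 to 8365 CPM in the germ cell sums against 14.9 to 103 CPM in the somatic sums. Xist was at 324 to 617 CPM in the somatic sums of the XX libraries and at or under 0.780 CPM in the XY ones. Wt1 itself was at 159 to 309 CPM in the somatic sums of all 12 libraries and passed the test in no knockout against WT. The alleles change its splicing, and the counts do not separate the forms. Any pair of libraries shared 3 to 34 kept cell barcodes. Of the 34 genes, 33 passed the filter on low counts in the somatic and in the germ cell sums. Calcr, the calcitonin receptor, did not, with at most 0.0525 CPM in any somatic sum and 0 CPM in all 12 germ cell sums, where a count of 0 allows up to 3 UMIs a library.

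Some of the 12 libraries differed from the other replicate of their group. XY +KTS KO replicate 2 held 67 of the 71 cells of the mesonephric duct cluster. XX -KTS KO replicate 2 had 25.3% of its somatic cells and 53.6% of its germ cells in clusters of low UMI count. XY +KTS KO replicate 1 had 64.1% pre-granulosa-like cells and 8.05% cells of unnamed clusters among its somatic cells, against 0.275% and 57.2% in replicate 2, and 44.3% of its germ cells were in clusters of low UMI count. In XX +KTS KO the unnamed clusters likewise held 62.8% and 62.6% of the somatic cells and the pre-granulosa-like ones 0.748% and 0.913%. The make-up of the somatic sums also differed between groups. Sertoli-like cells were 26.6% and 27.5% of the somatic cells of XY WT and 0.0583% and 0.121% of those of XY -KTS KO. Coelomic epithelium-like cells were 0.584% to 9.36% of the somatic cells in the WT libraries. Their share was 19.4% to 24.2% in the -KTS KO libraries and 23.4% to 26.8% in the +KTS KO ones. Interstitial progenitor-like cells were 12.4% and 5.95% of the somatic cells of XX WT, 55.7% and 32.9% of those of XY WT, 53.6% and 35.0% for XX -KTS KO, 50.9% and 46.3% for XY -KTS KO, 4.42% and 8.42% for XX +KTS KO, and 2.44% and 14.2% for XY +KTS KO. Pre-supporting-like cells, named from markers of the common precursors of Sertoli and granulosa cells, were 12.3% to 26.9% in the WT libraries and at most 0.117% in the -KTS KO ones. The paper reports pre-supporting cells in -KTS mutants of both sexes, so a low share under this name is no sign that such cells were absent. The name also covers unlike clusters: cluster 23, with Pax8 among its leading genes, held 32.2% of it in XX WT, and cluster 15 held 90.4% in XY WT. Clusters that were left unnamed were 2.37% to 62.8% of the somatic cells. Some of them did score for a marker set. Cluster 2 (5088 cells, 40.1% of them of XX +KTS KO) scored 1.53 for interstitial progenitors. Clusters 0 and 22 (7017 and 891 cells, 64.7% and 66.0% of them of XX +KTS KO) scored 1.16 and 1.14 for pre-supporting cells. The shares of both names may therefore leave out such cells, in XX +KTS KO among others. Also among the unnamed clusters, and so in the somatic sums, were small ones of other profiles. Cluster 30 (91 cells, with Myog and Myod1 leading) was all of XY +KTS KO, as was 97.6% of cluster 33 (41 cells, with Foxd1 and Scx). Cluster 32 (56 cells) was led by Pf4 and Ppbp. The clusters and their names were rebuilt here from marker genes and need not match the cell types that the study names. The shares of a named class may therefore differ from those of the study. The name pre-granulosa-like in particular covers 3 clusters that fill different genotypes. Cluster 9, led by the granulosa gene Fst, held 99.4% of the XX WT cells of that name. Cluster 4, whose leading genes hold none of the markers and whose marker score was the lowest of the 3 (0.485), held 99.8% of those of XX -KTS KO and 100% of those of XY -KTS KO. Cluster 6, in which the immediate early genes Fos, Fosb and Junb are among the leading genes, held 94.9% of those of XX +KTS KO and nearly all of those of XY +KTS KO. Of the pre-granulosa-like cells of XY +KTS KO, 4173 were of replicate 1 and 19 of replicate 2, so cluster 6 is mostly of 1 library. Shares under that name therefore do not follow 1 kind of cell between genotypes. In a summed library, a change within cells and a change in the share of a kind of cell cannot be told apart. Values from interstitial progenitor-like cells alone, which every group held, are therefore set beside the main results. The class as named leaves out the unnamed cluster 2, given above. Within that class, different clusters filled the groups: cluster 1 held 69.5% (XX) and 68.4% (XY) of it without the -KTS form, and 2.80% (XX) and 0.204% (XY) of it among WT cells. Cluster 5, with mitotic genes such as Aspm, Plk1 and Cdk1 among its leading genes, held 86.2% (XX) and 47.0% (XY) of it in WT. Without the -KTS form it held 0.285% (XX) and 0.326% (XY), and without the +KTS form 72.1% (XX) and 31.8% (XY). Cluster 14, with Nusap1 and Psrc1 among its leading genes as in cluster 5, held 28.6% (XX) and 24.2% (XY) of the class without the -KTS form. In WT cluster 14 held 2.32% (XX) and 0.0556% (XY) of it. In XY +KTS KO, cluster 24 held 64.7% of the class and cluster 13 held 0.351%, against 0% and 52.7% in XY WT. Cluster 24, with Hoxc10, Hoxa10 and Alx1 as leading genes, had 743 cells, 99.1% of them of XY +KTS KO. As the class held 159 and 979 cells in the XY +KTS KO replicates, most of these came from replicate 2. A difference within the class may thus also be one between its clusters.

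Reference sequence shows what kind of promoter the genes with the largest differences have. The windows are the 250 bases upstream of a RefSeq start (build GRCm38.p6), read 5′ to 3′ on the strand of the gene. Phlda2 and Slc22a18 are shown because they lie next to each other on chromosome 7, with 2210 bases between them, and had the largest sex difference among the 34 genes in germ cells. The capitals mark CG pairs, the sites of DNA methylation. The Phlda2 window (chr7:143502525-143502774, minus strand) and the Slc22a18 window (chr7:143473539-143473788, plus strand) read
Phlda2: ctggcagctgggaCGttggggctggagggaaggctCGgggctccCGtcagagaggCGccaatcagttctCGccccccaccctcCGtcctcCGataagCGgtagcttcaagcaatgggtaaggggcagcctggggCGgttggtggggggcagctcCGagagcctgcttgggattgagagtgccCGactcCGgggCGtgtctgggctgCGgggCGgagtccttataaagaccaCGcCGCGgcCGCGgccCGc
Slc22a18: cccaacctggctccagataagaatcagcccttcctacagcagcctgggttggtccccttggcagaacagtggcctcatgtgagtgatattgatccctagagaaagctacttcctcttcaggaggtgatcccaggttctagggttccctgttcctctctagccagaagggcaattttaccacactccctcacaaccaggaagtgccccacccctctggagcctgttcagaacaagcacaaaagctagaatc
The Phlda2 window holds 21 CG pairs, more than 83.7% of the 32851 upstream windows of that length in the RefSeq table, whose median is 6. The Slc22a18 window holds 0, as do 7.87% of the windows. The neighbours thus have promoters of unlike CG content.

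Plagl1, a zinc finger gene with a large difference between -KTS KO and WT somatic cells, is shown for a motif of ZFP57, the factor that keeps methylation at imprinting control regions. The capitals mark GCGGCA, the reverse complement of the ZFP57 motif TGCCGC, in the window chr10:13090582-13090831 (plus strand), which lies within the annotated span of the gene and holds 19 CG pairs.
Plagl1: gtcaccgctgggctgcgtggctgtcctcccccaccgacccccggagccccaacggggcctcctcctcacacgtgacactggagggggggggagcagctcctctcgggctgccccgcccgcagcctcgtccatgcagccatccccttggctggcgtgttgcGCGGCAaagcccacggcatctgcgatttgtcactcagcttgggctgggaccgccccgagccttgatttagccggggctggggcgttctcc
Of the 34 genes, 28 had such windows (43 windows in all), and TGCCGC was found on either strand in 9 of the 43 windows (20.9%), those of Calcr, Copg2, Meg3, Mest, Nap1l5, Plagl1, Zdbf2 and Zim1, against 8.68% of all windows. The letters GCGTGGG, the core shared by sites of the -KTS form of WT1 and of the EGR factors, were in 2 of the 43 windows (4.65%), those of Ube3a and Zdbf2, against 4.3% of all windows. A match describes the letters of a window and is no evidence of binding. H19, Cdkn1c, Peg10, Sgce, Impact and Peg13 had no entry in the table.

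In WT gonads the imprinted genes divided the cell classes among them. Cdkn1c, which codes for the cyclin-dependent kinase inhibitor p57, was at 1581 to 3912 CPM in the 3 libraries with enough pre-granulosa-like cells (mean 2992) and at 1388 to 4146 CPM in pre-supporting-like cells (mean 2687, n = 4). It was at 345 to 832 CPM in interstitial progenitor-like cells and at 494 to 637 CPM in the 2 libraries with Sertoli-like cells, so these ranges did not overlap those of the pre-granulosa-like and pre-supporting-like cells. Of these, XY WT replicate 2, with 46 pre-granulosa-like cells, gave the lowest pre-granulosa-like value, and both XY WT libraries are among the 4 with pre-supporting-like cells. Peg3, a paternally expressed zinc finger gene, and its neighbours Zim1 and Usp29 had their highest mean in pre-granulosa-like cells too (1870, 52.4 and 64.2 CPM). Mest, named as the mesoderm-specific transcript, was at 1588 to 2211 CPM in endothelial-like cells against 445 to 657 CPM in interstitial progenitor-like cells. Plagl1, Asb4 and Peg10 also had their highest mean in endothelial-like cells, with 128, 156 and 112 CPM. Dlk1, a membrane ligand of the Notch family that is kept in immature cells, was highest in coelomic epithelium-like cells (336 to 898 CPM) and interstitial progenitor-like cells (291 to 363 CPM) and was at 41.6 to 109 CPM in pre-granulosa-like cells. The noncoding RNAs Meg3 and Rian, read from the other parental copy of the Dlk1 domain, followed the same order at its top, with means of 218 and 70.0 CPM in coelomic epithelium-like cells and 134 and 43.0 CPM in interstitial progenitor-like cells. In germ cells, Phlda2, Slc22a18, Snrpn and Copg2 had their highest mean of any class. Ube3a, the ubiquitin ligase whose imprint is known from neurons, was at 77.2 to 142 CPM in every class apart from erythroid-like cells. The classes come from the same cells as the levels and from clusters made without the imprinted genes, and their order is given here with no test.

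**Figure D1:**
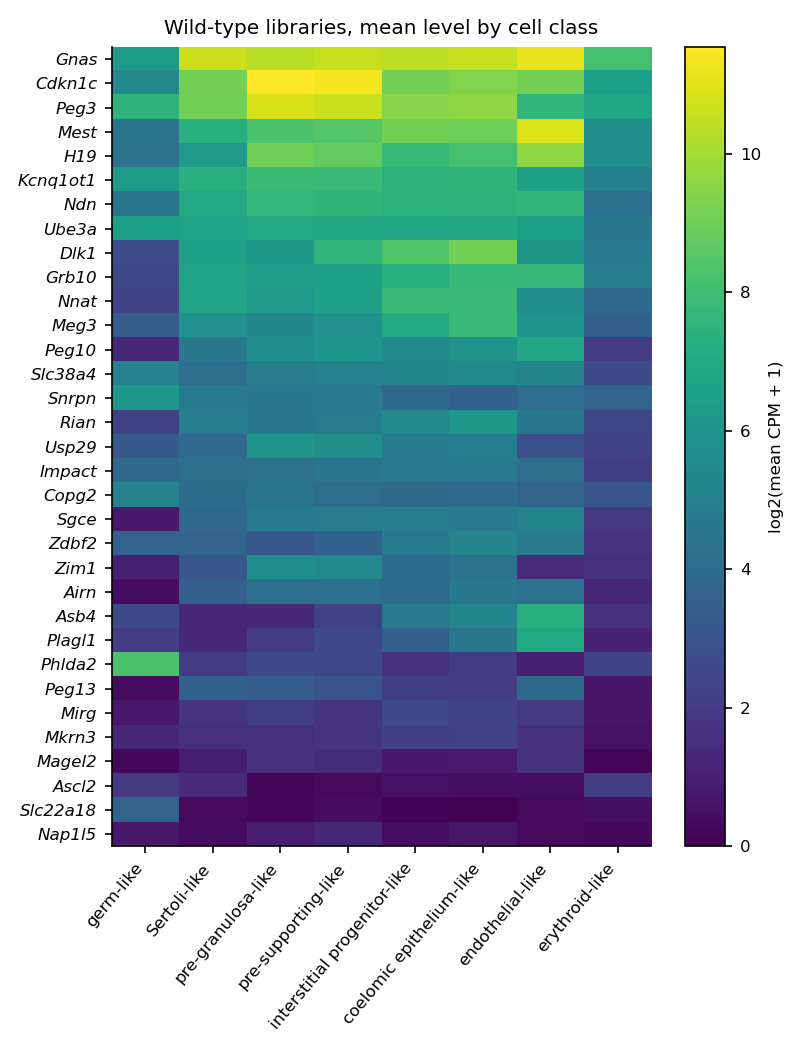
Heat map of the levels of the 33 imprinted genes past the filter (rows) by cell class (columns) in the WT gonads, as log2 of the mean CPM plus 1 over the libraries with at least 20 cells of that class. Along their rows, Cdkn1c, Peg3, Zim1 and Usp29 peak in the pre-granulosa-like column, Mest, Plagl1, Asb4 and Peg10 in the endothelial-like one, Dlk1, Meg3 and Rian in the coelomic epithelium-like one, and Phlda2, Slc22a18 and Snrpn in germ cells.

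Between the sexes of WT gonads, Cdkn1c and H19 were higher in the XX somatic cells than in the XY ones. Differences between groups are log2 fold changes ± SE from edgeR's quasi-likelihood test with 2 libraries a group, and a gene is said to have risen or fallen when its Benjamini-Hochberg adjusted p over all genes tested was under 0.05. Of the 33 genes tested, 6 were higher in XX and 1 was higher in XY, where 6.46% of all 17795 genes tested were called higher and 7.08% lower (13.5% in all). Cdkn1c was at 2399 and 2167 CPM for XX WT and at 591 and 741 CPM for XY WT, a difference of 1.71 ± 0.20 (adjusted p = 0.000933). H19, the maternally expressed noncoding RNA next to Igf2, was at 378 and 533 CPM for XX WT and at 82.9 and 152 CPM for XY WT, a difference of 1.89 ± 0.29 (adjusted p = 0.00297). Peg10, a retrotransposon-derived gene needed in the placenta, was at 65.7 and 77.2 CPM against 20.4 and 28.7 CPM, a difference of 1.48 ± 0.23 (adjusted p = 0.00361). These 3 were called whichever library was left out. Asb4 (1.23 ± 0.35), Zim1 (1.07 ± 0.22) and Usp29 (0.71 ± 0.19) were also higher in XX. Ascl2, a transcription factor of trophoblast, was higher in XY (-1.29 ± 0.36), at 0.857 and 0.727 CPM against 0.345 and 0.338 CPM. That call was lost whichever library was left out, with the replicate block, without the filter on low counts and over all kept cells. Leaving out XX WT replicate 1, XX WT replicate 2 or XY WT replicate 1 left 3 of the 7 calls, and leaving out XY WT replicate 2 left 5 of them and added 1. Among interstitial progenitor-like cells alone, where 2.82% of all genes were called, H19 (1.28 ± 0.28) and Peg10 (1.49 ± 0.32) were higher in XX and no other of 32 genes tested passed. Usp29 was there at 22.1 and 26.5 CPM for XX WT and 21.3 and 29.9 CPM for XY WT, a difference on the other side of 0 (-0.15 ± 0.25). Cdkn1c was there at 670 and 832 CPM for XX WT and 387 and 345 CPM for XY WT without passing.

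Loss of the -KTS form was accompanied by higher levels of a group of imprinted genes in the somatic cells of both sexes: Plagl1, Dlk1, its neighbour Rian, Zdbf2, Nnat, Grb10, Impact and Peg10 rose in XX and in XY. In XX gonads, 9 of the 33 genes rose and 2 fell against XX WT, with 6.81% of all genes called higher and 9.58% called lower. In XY gonads, 16 rose and 1 fell against XY WT, with 11% of all genes called higher and 12.5% called lower. The median log2 fold change of the 33 genes was 0.28 in XX and 0.54 in XY, against 0.01 over all genes tested in each. Loss of the +KTS form was accompanied by fewer calls: 5 of 33 fell and 0 rose in XX, where 2.67% of all genes were called lower and 2.34% higher (5.02% in all), and 3 rose and 2 fell in XY, where 6.02% were called higher and 6.5% lower (12.5% in all). The median of the 33 genes was -0.07 in XX and 0.20 in XY, against -0.00 and 0.05 over all genes. For the paternally expressed genes, 6 of 19 tested rose in XX -KTS KO and 10 of 19 in XY -KTS KO, and for the maternally expressed ones, 3 of 12 and 6 of 12 did. Leaving out a library lowers the number of libraries in a test of 2 against 2, and it lowered the counts of both -KTS KO comparisons against WT. For XX -KTS KO against XX WT the 11 calls became 4 and 5 without XX -KTS KO replicates 1 and 2 and 2 and 8 without XX WT replicates 1 and 2. Of the 11, Grb10 passed each time and H19 in all cases but 1. These were the 2 that passed without XX WT replicate 1. The XX rises of Plagl1, Dlk1, Rian, Mirg, Zdbf2, Nnat, Impact and Peg10 were thus lost there. The XX calls of Nnat and Impact were lost whichever library was left out. For XY -KTS KO against XY WT the 17 calls became 9 and 10 without the -KTS KO replicates and 8 and 7 without the WT ones, of which all but 1 of the last were among the 17. The XY rises of Plagl1, Zdbf2, Peg10, Asb4 and Zim1 passed each time, and those of Meg3, Rian, Grb10 and Slc38a4 were lost each time. Within interstitial progenitor-like cells, 7 of 32 genes rose and 0 fell in XX (9.51% of all genes called) and 10 rose and 0 fell in XY (15.8%). Coelomic epithelium-like cells, whose share was larger in -KTS KO than in WT, had the highest WT mean of Dlk1, Rian, Zdbf2, Nnat, Grb10 and Impact. Plagl1 and Peg10 had theirs in endothelial-like cells. The part of these shares in the rises was not tested.

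**Figure D2:**
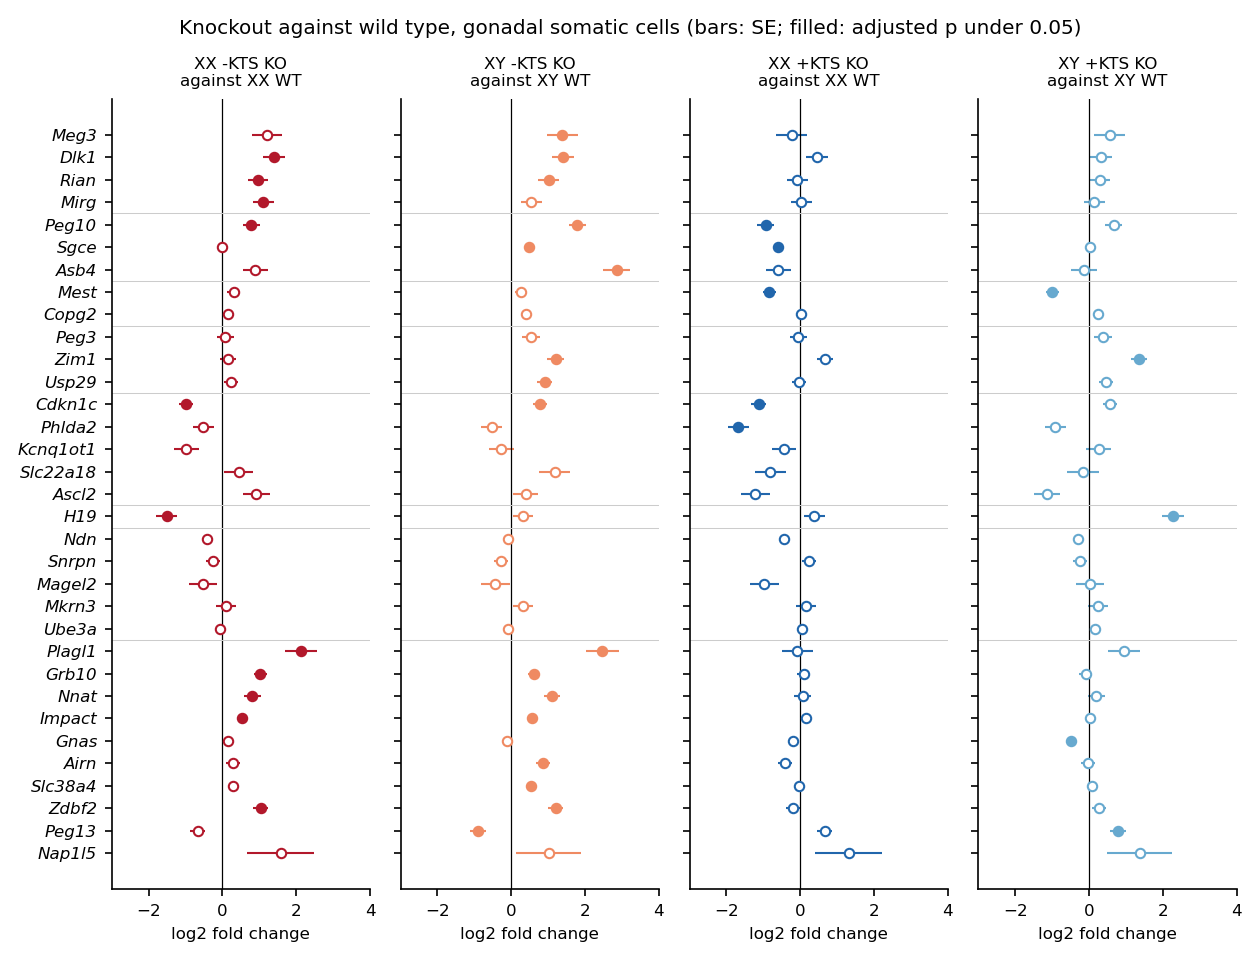
Log2 fold changes (x axis) of the 33 imprinted genes past the filter, grouped by domain, in gonadal somatic cells for each knockout against the WT of the same sex, with bars for ± SE and filled points for genes whose adjusted p passed 0.05. In the -KTS KO panels most filled points lie to the right of 0, 9 of 11 in XX and 16 of 17 in XY, and in the XX +KTS KO panel the 5 filled points lie to its left.

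Plagl1, a paternally expressed zinc finger gene that restrains proliferation and is known to regulate other imprinted genes, was at 6.10 and 14.7 CPM for XX WT, 4.98 and 6.84 CPM for XY WT, 58.4 and 28.0 CPM for XX -KTS KO, 24.5 and 42.5 CPM for XY -KTS KO, 8.90 and 10.2 CPM for XX +KTS KO, and 14.2 and 10.2 CPM for XY +KTS KO. The 4 -KTS KO libraries lay above the other 8. The rise was 2.13 ± 0.44 in XX (adjusted p = 0.0107) and 2.47 ± 0.45 in XY (adjusted p = 0.00393). In interstitial progenitor-like cells alone it was at 98.3 and 50.7 CPM for XX -KTS KO against 8.34 and 17.7 CPM for XX WT, and at 42.6 and 79.2 CPM for XY -KTS KO against 6.45 and 10.7 CPM for XY WT. The rises there were 2.60 ± 0.42 and 2.73 ± 0.41, and both passed. Plagl1 of WT gonads was highest in endothelial-like cells, a class outside the interstitial one.

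The Dlk1 domain of chromosome 12 holds the paternally expressed Dlk1 and the maternally expressed noncoding RNAs Meg3, Rian and Mirg, the last a host of many microRNAs. In -KTS KO against WT, 3 of these 4 genes rose in XX (Dlk1, Rian and Mirg) and 3 in XY (Dlk1, Meg3 and Rian). In +KTS KO against WT none of the 4 passed by edgeR or by DESeq2, and none had an unadjusted p under 0.05 in either sex. Dlk1 was at 206 and 269 CPM for XX WT, 263 and 157 CPM for XY WT, 742 and 467 CPM for XX -KTS KO, 583 and 572 CPM for XY -KTS KO, 308 and 328 CPM for XX +KTS KO, and 259 and 304 CPM for XY +KTS KO. Each -KTS KO library was above all others, and the rise was 1.41 ± 0.30 in XX and 1.40 ± 0.30 in XY. The rises within interstitial progenitor-like cells were 1.45 ± 0.24 and 1.45 ± 0.24, both past the test, with 754 to 1145 CPM in the -KTS KO libraries and 291 to 363 CPM in the WT ones. Meg3 was at 70.1 and 135 CPM for XX WT, 83.2 and 82.0 CPM for XY WT, 286 and 166 CPM for XX -KTS KO, 185 and 260 CPM for XY -KTS KO, 76.0 and 93.4 CPM for XX +KTS KO, and 191 and 74.2 CPM for XY +KTS KO. Its rise in XY was 1.39 ± 0.41 (adjusted p = 0.0367), and the value in XX, 1.21 ± 0.41, did not pass (adjusted p = 0.0754). Rian was at 29.2 and 51.5 CPM for XX WT, 31.8 and 32.5 CPM for XY WT, 86.2 and 64.4 CPM for XX -KTS KO, 61.9 and 71.9 CPM for XY -KTS KO, 32.4 and 42.3 CPM for XX +KTS KO, and 54.5 and 30.4 CPM for XY +KTS KO. The rises of Rian were 0.97 ± 0.28 in XX and 1.02 ± 0.28 in XY, and Mirg rose by 1.10 ± 0.28 in XX and stood at 0.54 ± 0.28 in XY without passing. XY +KTS KO replicate 1, with 64.1% of its somatic cells named pre-granulosa-like and 8.05% unnamed where the other 3 +KTS KO libraries had 57.2% to 62.8% unnamed, had the highest Meg3 and Rian of these 4 libraries.

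Zdbf2 and Nnat, both paternally expressed, rose in -KTS KO somatic cells of both sexes. Zdbf2, a zinc finger gene that acts on growth, was at 17.6 and 20.3 CPM for XX WT, 15.9 and 18.0 CPM for XY WT, 35.2 and 39.4 CPM for XX -KTS KO, 35.7 and 44.3 CPM for XY -KTS KO, 14.6 and 17.7 CPM for XX +KTS KO, and 27.9 and 16.1 CPM for XY +KTS KO. The -KTS KO libraries did not overlap the others, and the rises were 1.03 ± 0.20 in XX (adjusted p = 0.00722) and 1.20 ± 0.20 in XY (adjusted p = 0.00232). Nnat, which codes for the proteolipid neuronatin, was at 151 and 180 CPM for XX WT, 164 and 143 CPM for XY WT, 275 and 284 CPM for XX -KTS KO, 339 and 344 CPM for XY -KTS KO, 130 and 209 CPM for XX +KTS KO, and 166 and 208 CPM for XY +KTS KO. Its rises were 0.81 ± 0.22 in XX (adjusted p = 0.0327) and 1.11 ± 0.22 in XY (adjusted p = 0.00623). Zdbf2 also rose within XY interstitial progenitor-like cells (0.92 ± 0.23), where Nnat stood at 391 and 402 CPM against 217 and 184 CPM, a difference of 0.87 ± 0.28 that did not pass (adjusted p = 0.0558). In XX interstitial progenitor-like cells neither gene passed: Zdbf2 was at 39.2 and 45.2 CPM against 28.5 and 35.8 CPM (0.44 ± 0.23), and the difference of Nnat was 0.49 ± 0.28.

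Grb10, an adaptor that dampens insulin and IGF receptor signalling, was at 111 and 135 CPM for XX WT, 120 and 146 CPM for XY WT, 218 and 261 CPM for XX -KTS KO, 194 and 224 CPM for XY -KTS KO, 105 and 152 CPM for XX +KTS KO, and 147 and 120 CPM for XY +KTS KO. The -KTS KO libraries were above the other 8, with rises of 1.03 ± 0.17 in XX (adjusted p = 0.00418) and 0.62 ± 0.17 in XY (adjusted p = 0.0282). Impact, a regulator of the kinase GCN2, was at 25.5 and 26.6 CPM for XX WT, 23.1 and 25.7 CPM for XY WT, 37.0 and 35.5 CPM for XX -KTS KO, 33.6 and 40.1 CPM for XY -KTS KO, 25.0 and 31.6 CPM for XX +KTS KO, and 27.0 and 26.1 CPM for XY +KTS KO. Its rises were small, 0.53 ± 0.13 in XX and 0.56 ± 0.13 in XY.

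Of the Peg10 domain of chromosome 6, Peg10, Sgce and Asb4 rose in XY -KTS KO, and Peg10 rose in XX -KTS KO. None of the 3 had a -KTS effect that passed as different between XX and XY, and Peg10 and Asb4 started from lower levels in XY WT than in XX WT. Asb4, a maternally expressed gene of the ankyrin and SOCS box family, was at 17.8 and 21.6 CPM for XX WT, 9.35 and 6.45 CPM for XY WT, 36.9 and 33.2 CPM for XX -KTS KO, 62.3 and 55.8 CPM for XY -KTS KO, 7.50 and 18.4 CPM for XX +KTS KO, and 7.02 and 8.31 CPM for XY +KTS KO. The rise in XY was 2.85 ± 0.37 (adjusted p = 0.000654) and held whichever library was left out. The value in XX was 0.89 ± 0.34 and did not pass (adjusted p = 0.111). Peg10 was at 95.8 and 141 CPM for XX -KTS KO, 70.3 and 103 CPM for XY -KTS KO, 31.4 and 41.7 CPM for XX +KTS KO, and 45.6 and 36.9 CPM for XY +KTS KO, beside the WT values given above. It rose by 0.78 ± 0.23 in XX (adjusted p = 0.043) and by 1.78 ± 0.23 in XY (adjusted p = 0.000727), while in XX +KTS KO it fell by 0.93 ± 0.23 (adjusted p = 0.0471). Sgce, which codes for epsilon-sarcoglycan and shares a promoter region with Peg10, rose by 0.49 ± 0.14 in XY -KTS KO. Within interstitial progenitor-like cells Asb4 of XY -KTS KO rose by 2.33 ± 0.53, and Peg10 did not pass in XX (0.10 ± 0.31) or XY (0.98 ± 0.31, adjusted p = 0.0578).

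Of the Peg3 domain of chromosome 7, Zim1 and Usp29 rose in XY -KTS KO and none of the 3 genes passed in XX -KTS KO. Zim1, a zinc finger gene, was at 32.1 and 33.6 CPM for XX WT, 10.9 and 19.1 CPM for XY WT, 34.7 and 36.0 CPM for XX -KTS KO, 30.4 and 39.9 CPM for XY -KTS KO, 44.3 and 57.8 CPM for XX +KTS KO, and 46.7 and 34.8 CPM for XY +KTS KO. The XY WT libraries were the lowest of the 12, and the rise in XY -KTS KO was 1.20 ± 0.22 (adjusted p = 0.00411). Usp29, a ubiquitin-specific peptidase gene, was at 39.4 and 49.1 CPM for XX WT, 19.6 and 32.1 CPM for XY WT, 48.0 and 51.3 CPM for XX -KTS KO, 43.0 and 55.4 CPM for XY -KTS KO, 39.1 and 45.9 CPM for XX +KTS KO, and 39.5 and 35.9 CPM for XY +KTS KO, with a rise of 0.90 ± 0.19 in XY -KTS KO. In interstitial progenitor-like cells alone Zim1 rose in both sexes of -KTS KO (1.15 ± 0.32 in XX and 1.74 ± 0.32 in XY), as did Usp29 (1.01 ± 0.26 and 0.80 ± 0.25).

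Cdkn1c and H19 moved differently in the sexes. Cdkn1c was at 2399 and 2167 CPM for XX WT and 591 and 741 CPM for XY WT, as above, and at 1163 and 1058 CPM for XX -KTS KO, 1282 and 1050 CPM for XY -KTS KO, 1052 and 991 CPM for XX +KTS KO, and 1294 and 820 CPM for XY +KTS KO. All 8 knockout libraries lay between the XY WT and the XX WT libraries. In XX it fell by 0.98 ± 0.20 without the -KTS form (adjusted p = 0.0096) and by 1.13 ± 0.20 without the +KTS form (adjusted p = 0.0137). In XY it rose by 0.78 ± 0.20 without the -KTS form (adjusted p = 0.019), and its value of 0.57 ± 0.20 without the +KTS form did not pass (adjusted p = 0.0874). In WT, Cdkn1c was highest in pre-granulosa-like and pre-supporting-like cells, and pre-supporting-like cells, 16.6% and 18.7% of somatic cells in XX WT, were at most 0.117% in the -KTS KO and 1.91% to 5.14% in the +KTS KO libraries. The unnamed clusters 0 and 22, which scored for pre-supporting markers, lie outside these shares. A low share is therefore no sign that such cells were lost. Pre-granulosa-like cells were 30.3% and 29.4% of somatic cells in XX WT, in cluster 9, and 26.6% and 25.1% in XY -KTS KO, in cluster 4, with 0.234% and 0.957% in XY WT. They were at most 21.5% in XX -KTS KO, again in cluster 4. In the +KTS KO they lay mostly in cluster 6, with 0.748% and 0.913% in XX and 64.1% and 0.275% in XY. The paper reports no pre-granulosa cluster in -KTS KO gonads, and such clusters in XX and XY +KTS KO gonads. As the clusters differ, the shares do not follow 1 kind of cell. The part of these shares in the differences of Cdkn1c was not tested. Within interstitial progenitor-like cells the log2 difference of Cdkn1c in XX -KTS KO was on the other side of 0 (0.47 ± 0.29, not past the test), at 1063 and 953 CPM against 670 and 832 CPM, and that in XY -KTS KO was 1.51 ± 0.30 and passed. In XX +KTS KO no fall was seen in these cells, with a log2 difference of 0.0070 ± 0.29 and levels of 449 and 1068 CPM against 670 and 832 CPM.

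H19 was at 175 and 131 CPM for XX -KTS KO, 120 and 178 CPM for XY -KTS KO, 560 and 597 CPM for XX +KTS KO, and 693 and 511 CPM for XY +KTS KO, beside 378 and 533 CPM for XX WT and 82.9 and 152 CPM for XY WT. The -KTS KO libraries of both sexes overlapped those of XY WT, and the +KTS KO libraries of both sexes, at 511 to 693 CPM, lay within or above the range of XX WT. H19 fell by 1.51 ± 0.28 in XX -KTS KO (adjusted p = 0.00677) and rose by 2.27 ± 0.29 in XY +KTS KO (adjusted p = 0.00177). It did not pass in XY -KTS KO (0.32 ± 0.28) or XX +KTS KO (0.38 ± 0.28). The XY +KTS KO call held whichever library was left out, XY +KTS KO replicate 1 among them. Within interstitial progenitor-like cells H19 rose by 1.70 ± 0.28 in XY +KTS KO and by 0.92 ± 0.28 in XY -KTS KO. Most interstitial cells of these groups lay in clusters with few or no such cells of XY WT, as given above. Cluster 5 was shared in part: it held 31.8% of the class for XY +KTS KO, against 47.0% for XY WT. The H19 value within the class in XX -KTS KO was -0.38 ± 0.28, not past the test. H19 is the host of the microRNA miR-675, which was not measured here. Its mature forms in RefSeq are given with the seed, bases 2 to 8, in capitals, as they are what the H19 transcript is cut into (chr7:142577112-142577133 and chr7:142577078-142577099, minus strand).
miR-675-5p: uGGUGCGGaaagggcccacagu
miR-675-3p: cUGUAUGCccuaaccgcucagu

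Airn, the noncoding RNA that silences its domain in cis, was at 14.9 and 20.9 CPM for XX WT, 13.2 and 14.4 CPM for XY WT, 24.2 and 17.5 CPM for XX -KTS KO, 27.7 and 23.7 CPM for XY -KTS KO, 13.4 and 12.8 CPM for XX +KTS KO, and 15.5 and 13.1 CPM for XY +KTS KO. The XY -KTS KO libraries were above all but 1 XX -KTS KO library, and the rise in XY -KTS KO was 0.86 ± 0.19. The remaining calls of XY -KTS KO against XY WT were a rise of the amino acid transporter gene Slc38a4 (0.54 ± 0.15) and a fall of the noncoding RNA Peg13 (-0.90 ± 0.21, adjusted p = 0.0139). Peg13 was at 5.87 and 6.85 CPM for XX WT, 4.69 and 7.94 CPM for XY WT, 4.14 and 3.52 CPM for XX -KTS KO, 3.39 and 3.46 CPM for XY -KTS KO, 10.2 and 9.47 CPM for XX +KTS KO, and 13.1 and 10.0 CPM for XY +KTS KO. The +KTS KO libraries were the highest and the -KTS KO libraries the lowest. Peg13 lies within Trappc9 on the same strand in the annotation, so that reads of the 2 genes may not be told apart.

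**Figure D3:**
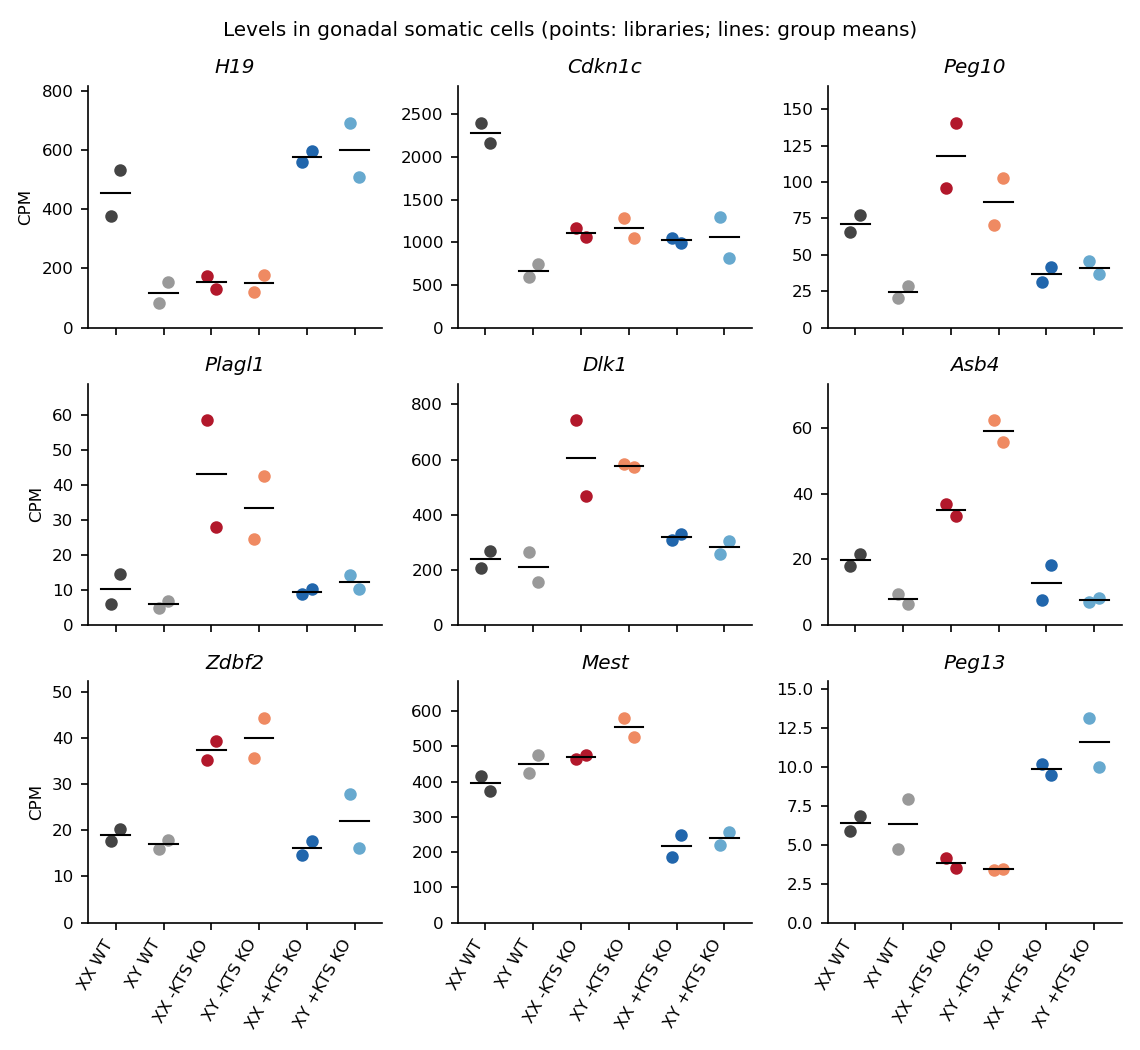
Levels in gonadal somatic cells (y axes, CPM from 0) of H19, Cdkn1c, Peg10, Plagl1, Dlk1, Asb4, Zdbf2, Mest and Peg13 by group (x axes), with a point for each of the 12 libraries and a line for the mean of each group. Plagl1, Dlk1, Asb4 and Zdbf2 have the -KTS KO points of both sexes above the rest, Cdkn1c has the XX WT points above the rest, H19 has the +KTS KO points at 511 to 693 CPM, and Mest has the +KTS KO points below the rest.

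Loss of the +KTS form went with lower Mest in both sexes. Mest, which codes for a hydrolase-like protein and is paternally expressed, was at 417 and 373 CPM for XX WT, 426 and 474 CPM for XY WT, 464 and 475 CPM for XX -KTS KO, 581 and 528 CPM for XY -KTS KO, 186 and 249 CPM for XX +KTS KO, and 220 and 258 CPM for XY +KTS KO. The 4 +KTS KO libraries lay below the other 8. Mest fell by 0.84 ± 0.17 in XX (adjusted p = 0.0247) and by 0.99 ± 0.17 in XY (adjusted p = 0.00682). The XY call held whichever library was left out, and the XX call was lost each time. Over all kept cells, which include the endothelial-like ones, the XY value was -0.64 and did not pass. In interstitial progenitor-like cells alone the values were -0.52 ± 0.24 in XX and -0.35 ± 0.24 in XY, and neither passed. Phlda2, a PH domain gene known to restrain placental growth, fell in XX +KTS KO by 1.67 ± 0.29 (adjusted p = 0.0124), from 5.01 and 4.57 CPM for XX WT to 1.67 and 1.25 CPM. RNA of germ cells is read in the somatic sums too, where the germ cell markers stood at 1.19% and 1.02% of their germ cell level for XX WT and 1.08% and 1.01% for XX +KTS KO. At these shares the germ cell level of Phlda2, given below, would by itself bring 7.91 and 4.27 CPM to the somatic sums of XX WT and 0.910 and 1.47 CPM to those of XX +KTS KO, so that a fall of Phlda2 within somatic cells cannot be told apart from that in germ cells. Sgce fell there too (-0.61 ± 0.14), from 32.9 and 29.6 CPM for XX WT to 21.2 and 18.7 CPM, below both WT libraries. In XY +KTS KO, Zim1 rose by 1.36 ± 0.22 (adjusted p = 0.00538), Peg13 rose by 0.79 ± 0.21 (adjusted p = 0.0383) and Gnas, the gene of the stimulatory G protein alpha subunit, fell by 0.50 ± 0.14 (adjusted p = 0.0473), from 1635 and 1525 CPM to 1231 and 1162 CPM. Of the 5 calls in XX +KTS KO against XX WT, 1 was left without XX +KTS KO replicate 1 and 0 without XX +KTS KO replicate 2 or either XX WT library, while DESeq2 called 8 and 10 of the 33 genes had an unadjusted p under 0.05, as had 3277 of all 17795 genes. Of the 5 calls in XY, 3 and 4 were made again without XY +KTS KO replicates 1 and 2, where 3 and 6 genes passed in all, and 3 and 4 without XY WT replicates 1 and 2, where 3 and 5 did. The Gnas call was lost whichever library was left out, with the replicate block, without the filter on low counts and over all kept cells.

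Set directly against each other, the knockouts differed in 16 of the 33 genes in each sex, 14 higher and 2 lower in -KTS KO than in +KTS KO. Of all genes tested, 8.66% were called higher and 10% lower in XX, and 9.81% and 11.7% in XY. These comparisons share their libraries with those against WT, and so their calls are not further evidence for the same genes. In both sexes H19 and Peg13 were the genes that were lower in -KTS KO, H19 by -1.89 ± 0.29 in XX and -1.95 ± 0.29 in XY and Peg13 by -1.34 ± 0.21 and -1.69 ± 0.22. Mest was higher in -KTS KO by 1.14 ± 0.17 in XX (adjusted p = 0.00159) and 1.26 ± 0.17 in XY (adjusted p = 0.000863). Peg10 was higher by 1.72 ± 0.23 and 1.12 ± 0.23, Asb4 by 1.48 ± 0.35 and 2.99 ± 0.37, Plagl1 by 2.20 ± 0.44 and 1.51 ± 0.43, and Zdbf2 by 1.24 ± 0.20 and 0.93 ± 0.20. Ascl2, at 0.132 and 0.154 CPM for XX +KTS KO and 0.499 and 0.278 CPM for XY +KTS KO, was higher in -KTS KO by 2.14 ± 0.39 and 1.54 ± 0.36, and was at most 1.22 CPM in any library. The other 8 calls in XX were all higher in -KTS KO, by 0.60 to 1.45, as were the other 8 in XY, by 0.46 to 1.34. Of the 16 calls in XX, 8 and 10 were made again without XX +KTS KO replicates 1 and 2 and 7 and 12 without XX -KTS KO replicates 1 and 2. Of those in XY, 9 and 11 were made again without the +KTS KO replicates and 9 and 8 without the -KTS KO ones. Genes outside the 16 brought the number that passed to 13 without XX -KTS KO replicate 2 and to 11 and 12 without XY +KTS KO replicates 1 and 2. In interstitial progenitor-like cells, 5 genes were higher and 1 lower in XX -KTS KO (10.7% of all genes called) and 4 were higher and 1 lower in XY (11.2%). There the log2 difference was on the other side of 0, without passing, for Asb4 in XX (-0.31 ± 0.51), at 38.3 and 39.6 CPM against 14.2 and 86.2 CPM, and for Mest (-0.24) and Sgce (-0.0050) in XY.

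Whether a knockout acted differently in XX and XY was tested as an interaction. For the -KTS form, Cdkn1c (-1.76 ± 0.28, adjusted p = 0.0141) and H19 (-1.83 ± 0.39, adjusted p = 0.0392) had a lower effect in XX than in XY, 2 of 33 genes where 1.24% of all genes were called lower and 1.84% higher (3.08% in all). For the +KTS form, Cdkn1c (-1.69 ± 0.28, adjusted p = 0.0132), H19 (-1.89 ± 0.39, adjusted p = 0.0314) and Peg10 (-1.60 ± 0.32, adjusted p = 0.0282) did, 3 of 33 where 1.82% were called lower and 2.11% higher (3.93% in all). All of these genes differed between XX WT and XY WT, and both interactions use the same WT libraries. With the replicate block, 1 of the 2 calls of the -KTS interaction and all 3 of the +KTS one were kept. With 1 of the 8 libraries left out, 0 to 3 genes passed in each interaction. Asb4, whose XY effect passed and whose XX effect did not, had an interaction of -1.96 ± 0.49 that did not pass (adjusted p = 0.064). In interstitial progenitor-like cells none of 32 genes passed in either interaction, where 0.0807% (-KTS) and 0.404% (+KTS) of all genes did.

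The Snrpn domain of chromosome 7, which holds Snrpn, Ndn, Magel2, Mkrn3 and Ube3a and is known from Prader-Willi and Angelman syndromes, had no called gene in any comparison between groups of somatic cells by edgeR. At an unadjusted p under 0.05 there were 0 to 2 of its 5 genes, where 3264 to 6484 of all 17795 genes were, and DESeq2 called 0 or 1. With 5 genes, such counts are not far from the background. Ndn, which codes for the growth suppressor necdin, was at 185 and 179 CPM for XX WT, 151 and 172 CPM for XY WT, 136 and 125 CPM for XX -KTS KO, 170 and 142 CPM for XY -KTS KO, 130 and 131 CPM for XX +KTS KO, and 146 and 132 CPM for XY +KTS KO. Its value was -0.42 ± 0.13 in XX -KTS KO (adjusted p = 0.051) and -0.44 ± 0.13 in XX +KTS KO (adjusted p = 0.0888). Snrpn, a gene of the splicing machinery, stayed within 14.4 to 23.5 CPM and Ube3a within 104 to 156 CPM over the 12 libraries. Kcnq1ot1, the noncoding RNA of the Cdkn1c domain, ranged from 88.2 to 294 CPM, Peg3 from 571 to 1373 CPM and Copg2 from 12.3 to 20.9 CPM. With Nap1l5, at no more than 3.79 CPM, and the genes of the Snrpn domain, these were the genes that passed in no comparison between groups of somatic or germ cells.

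Genes outside the 34 gave the background of the pathway. Of 24 other imprinted genes tested, 3 rose and 3 fell in XX -KTS KO and 7 rose and 2 fell in XY -KTS KO against WT. Beside the shares of all genes, 6.81% higher and 9.58% lower in XX and 11% and 12.5% in XY, the 3 that rose and the 3 that fell in XX and the 2 that fell in XY are not far from the background. Of those that rose, Begain (1.28 ± 0.27) and Blcap (0.51 ± 0.12) in XX and Blcap (1.03 ± 0.12), Ppp1r9a (1.26 ± 0.19) and Casd1 (0.72 ± 0.15) in XY were among those with the lowest adjusted p. Blcap lies around Nnat on the other strand, and Ppp1r9a and Casd1 lie in the Peg10 domain. In XX +KTS KO, where 5.02% of all genes were called, 1 of them passed (Peg12, 0.58 ± 0.12) and in XY +KTS KO, where 12.5% were, 2 did, Inpp5f (1.92 ± 0.21) and Ddc (-1.15 ± 0.22). Of 17 tested genes that keep or erase imprints, 2 passed in XX -KTS KO, Cbx5 (0.67 ± 0.13) and Uhrf1 (-0.56 ± 0.15), and 8 passed in XY -KTS KO, 5 higher and 3 lower. As shares these are 11.8% in XX and 47.1% in XY, where 16.4% and 23.5% of all genes were called. The XY calls with the lowest adjusted p were Uhrf1, the partner that brings DNMT1 to replicating DNA (-1.15 ± 0.16), Dnmt1, the maintenance methyltransferase (-0.53 ± 0.12), Smchd1 (0.49 ± 0.12) and Zfp445, a zinc finger factor that protects imprints (0.62 ± 0.15). In +KTS KO, 0 of the 17 passed in XX and 2 in XY, Kdm1b (0.77 ± 0.21) and Ehmt2 (0.48 ± 0.13), which is 11.8% of them.

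Germ cells had much lower levels of most imprinted genes than somatic cells of the same library and higher levels of a few. In a test of germ cell sums against somatic sums with the library as a block (12 libraries), 26 of 33 genes were lower in germ cells and 5 higher, where 46.1% of all 18416 genes tested were lower and 40.3% higher (86.4% in all). The median log2 difference of the 33 genes was -2.39, against -0.14 over all genes tested. The 5 that were higher were Phlda2 (5.96 ± 0.29), its neighbour Slc22a18, an organic cation transporter gene (5.15 ± 0.31), Ascl2 (2.38 ± 0.34), Snrpn (2.22 ± 0.08) and Copg2, the antisense neighbour of Mest that codes for a vesicle coat protein (1.23 ± 0.06). The germ cell level of Phlda2 was 1874% to 13281% of the somatic level of the same library, that of Snrpn 324% to 589% and that of Copg2 170% to 265%. Snrpn overlaps Snurf and Gm38393 on the same strand in the annotation, so that reads of these genes may not be told apart. Of the Kcnq1 domain, Phlda2, Slc22a18 and Ascl2 were thus higher in germ cells, whereas its other genes Cdkn1c (-4.64 ± 0.22) and Kcnq1ot1 (-1.24 ± 0.10) were lower. Ascl2 was low in germ cells too, at 1.07 to 4.29 CPM, and in XY -KTS KO replicate 1 at 96.5% of the somatic level. Its WT mean was 2.81 CPM in germ cells and 3.26 CPM in erythroid-like cells. The lowest were Dlk1 (-5.71 ± 0.35), Airn (-5.63 ± 0.32), Nnat (-5.56 ± 0.29), Sgce (-5.02 ± 0.31) and Grb10 (-4.93 ± 0.20). Slc38a4 (0.06 ± 0.10) and Nap1l5 (-0.38 ± 0.33) did not pass.

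Free RNA of somatic cells is also read in germ cells, and 10 genes of gonadal somatic cells such as Wt1 and Gata4 gave its size. Their summed germ cell level was 0.583% to 6.16% of their summed somatic level over the libraries (median 1.52%). Dlk1, Cdkn1c, Grb10, Zim1, Peg10, Sgce, Nnat, Airn and Peg13 were at or under 2 times that share, in the median of the libraries. Of these, Dlk1, Airn and Nnat had medians below the share itself and were above it in 2, 2 and 4 of the 12 libraries, so that their germ cell levels cannot be told apart from it. Sgce was above it in 8 libraries, Grb10 in 10, Zim1, Peg10 and Peg13 in 11, and Cdkn1c in all 12, at 1.70% to 8.81% of the somatic level. Peg3 at 12.8% to 28.5%, Ndn at 10.3% to 22.3% and Kcnq1ot1 at 23.2% to 63.2% of the somatic level were above it in all 12 libraries. All 17 tested genes that keep or erase imprints also passed between germ and somatic cells, where 86.4% of all genes did. Among them were Dppa3, which protects methylation in the early embryo (9.39 ± 0.45), and Tet1, an oxidase of methylcytosine (3.05 ± 0.07), both higher in germ cells, and Zfp57 (-4.67 ± 0.18) and Uhrf1 (-2.21 ± 0.10), both lower.

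**Figure D4:**
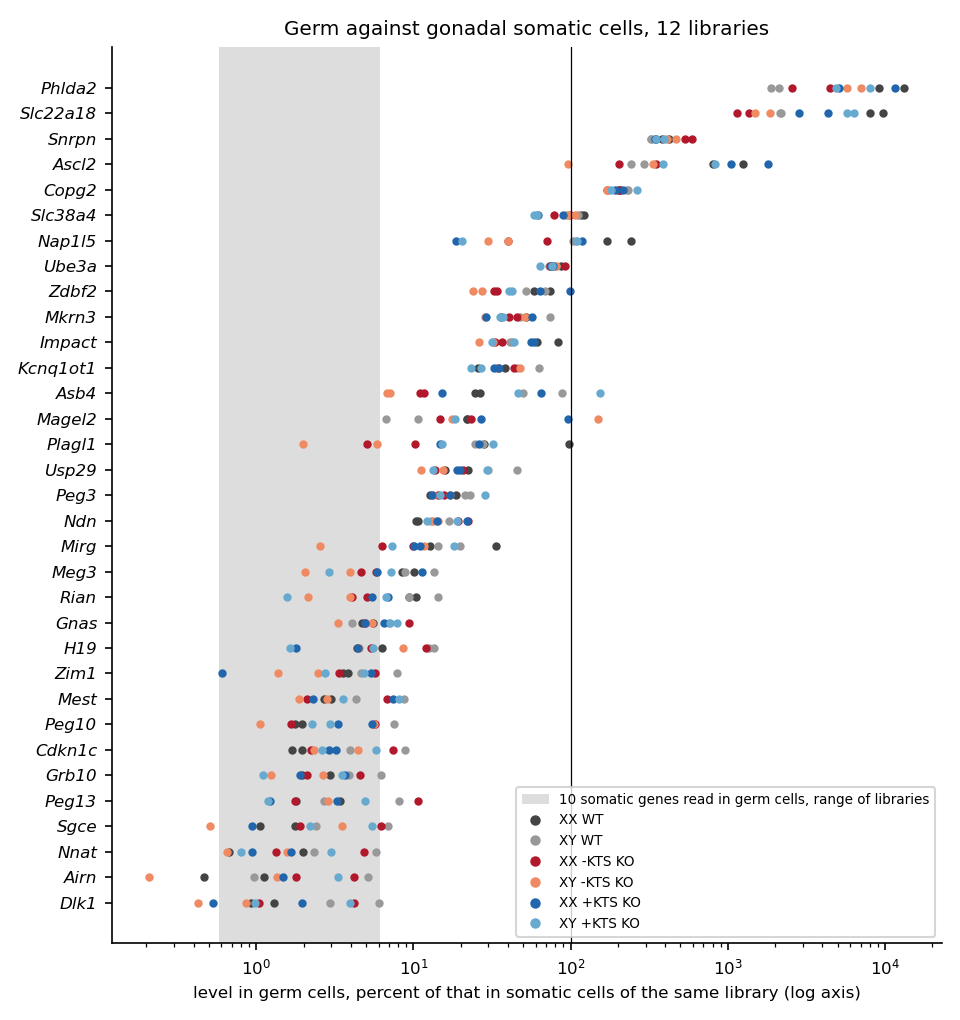
Germ cell level as a percent of the somatic level of the same library (x axis, log scale) for each imprinted gene (y axis), with a point for each of the 12 libraries coloured by group and a band for the range over the libraries of 10 somatic genes read in germ cells. Phlda2, Slc22a18, Snrpn and Copg2 lie above 100% in all 12 libraries, and Dlk1, Nnat and Airn lie mostly within the band, points at 0 not being drawn.

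Within germ cells, Phlda2 and Slc22a18 were the imprinted genes that differed between XX and XY WT. Phlda2 was at 665 and 418 CPM for XX WT, 40.5 and 57.3 CPM for XY WT, 84.5 and 142 CPM for XX -KTS KO, 142 and 83.9 CPM for XY -KTS KO, 84.5 and 146 CPM for XX +KTS KO, and 80.0 and 92.8 CPM for XY +KTS KO. The XX WT libraries stood above the other 10, and the XY WT libraries were the lowest. Slc22a18 was at 25.2 and 17.6 CPM for XX WT, 2.50 and 2.93 CPM for XY WT, 2.83 and 5.18 CPM for XX -KTS KO, 4.91 and 4.75 CPM for XY -KTS KO, 4.82 and 4.40 CPM for XX +KTS KO, and 6.68 and 7.40 CPM for XY +KTS KO, again with XX WT apart from the rest. XX WT exceeded XY WT by 3.49 ± 0.41 for Phlda2 (adjusted p = 0.00269) and by 2.99 ± 0.32 for Slc22a18 (adjusted p = 0.00131), 2 of 33 genes where 0.762% of 13912 genes were called. The Slc22a18 call held whichever library was left out, and that of Phlda2 was lost without XY WT replicate 1.

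Slc22a18 fell in the germ cells of both XX knockouts, by 2.29 ± 0.31 in XX -KTS KO (adjusted p = 0.0215) and by 2.16 ± 0.31 in XX +KTS KO (adjusted p = 0.0346), 1 of 33 genes in each. Of all genes, 0.00719% were called lower and 0.0575% higher in XX -KTS KO (0.0647% in all), and 0.0144% were lower and 0.0575% higher without the +KTS form (0.0719% in all). Phlda2 had differences of the same size, -2.18 ± 0.39 and -2.19 ± 0.39, that did not pass (adjusted p = 0.109 and 0.158). Both comparisons use the same XX WT libraries. The Slc22a18 call in XX +KTS KO was lost whichever library was left out, and that in XX -KTS KO was kept in 2 of 4 cases. With the replicate block both were lost (adjusted p = 0.0585 in XX -KTS KO and 0.085 in XX +KTS KO). In XY germ cells none of the 33 genes passed in either knockout by edgeR or by DESeq2, and 4 in XY -KTS KO and 5 in XY +KTS KO had an unadjusted p under 0.05. Of all 13912 genes tested there, 922 and 1059 had such a p, edgeR called 0% in either knockout and DESeq2 called 42 genes in XY -KTS KO and 23 in XY +KTS KO. Levels also lay apart within a single germ cell cluster. In cluster 3, Phlda2 was at 668 and 405 CPM for XX WT, 40.6 and 58.2 CPM for XY WT and 50.8 to 144 CPM in the 8 knockout libraries, and Slc22a18 at 25.5 and 17.3 CPM, 2.45 and 3.02 CPM, and 2.23 to 6.36 CPM. In cluster 19, which holds germ cells of low UMI count, Phlda2 was at 513 and 401 CPM for XX WT and 27.2 to 102 CPM in the other libraries. Cluster 21, the remaining germ cell cluster, was filled unevenly within groups. It held 3 of 927 germ cells in XX WT replicate 1 and 201 of 476 in replicate 2, and 2 of 485 and 192 of 429 in XY -KTS KO. It held at most 5 cells in either XY WT library. In it Phlda2 was at 433 CPM for XX WT replicate 2 and 83.5 to 169 CPM in the knockout libraries with at least 20 such cells. The somatic level of Phlda2 was at most 5.01 CPM in any library.

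**Figure D5:**
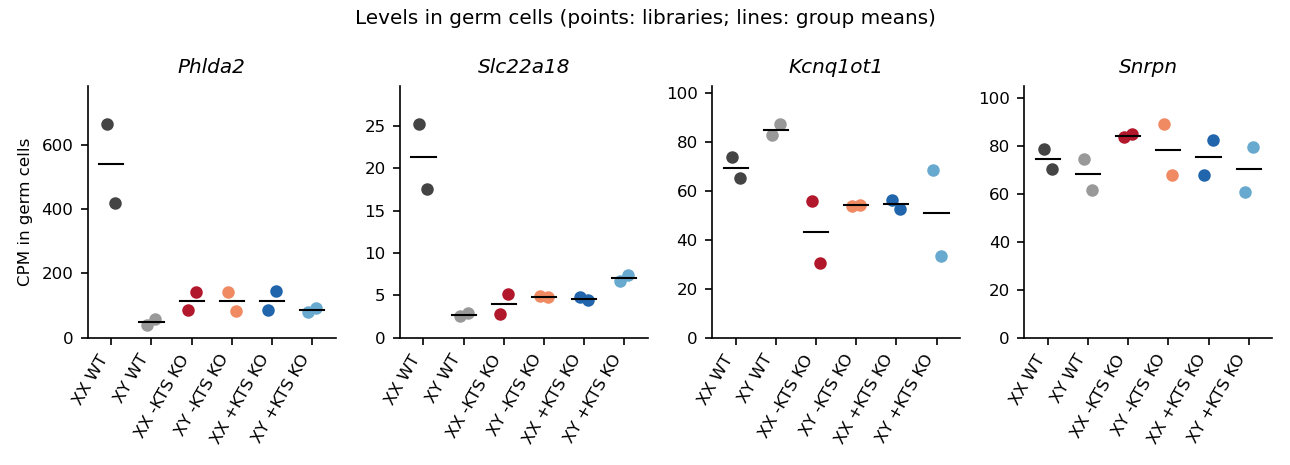
Levels in germ cells (y axes, CPM from 0) of Phlda2, Slc22a18, Kcnq1ot1 and Snrpn by group (x axes), with a point for each of the 12 libraries and a line for the mean of each group. The XX WT points of Phlda2 and Slc22a18 lie above those of the other groups, and those of Kcnq1ot1 and Snrpn do not.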

How the data were processed

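The deposited files held raw UMI counts per gene and barcode of 12 single-cell libraries, made by the authors with Cell Ranger 6.0 (mm10). How reads of overlapping genes were assigned is not given in the sources used here, and 15 of the 34 genes overlap another counted gene, 3 of them on the same strand. Barcodes of 1000 genes or more with mitochondrial UMIs at or under 10% (83513 of 103730) were kept, and the top 0.8% per 1000 barcodes by Scrublet score (4839) were removed. Library totals were 108111924 to 147968666 UMIs. Cells were clustered with Seurat 5.3.0 and sctransform 0.4.2 (3000 variable genes without the imprinted ones, 50 components, 20 neighbours, resolution 0.8, 34 clusters) and named from marker lists.

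UMIs were summed per library and lineage and tested with edgeR 4.0.16 (filterByExpr, TMM, quasi-likelihood, all 12 libraries in 1 fit) and adjusted by Benjamini-Hochberg over the whole table. The 2 libraries of a group are independent replicates per the study's methods. DESeq2 1.42.0, other scaling, no filter, a replicate block, other cells and leaving out each library were alternatives. The fits were first tested on simulated data with known changes. Members, lists and tests were chosen with earlier results of these data known. Values in every library are given for called members, or, where over 10 were called, for the 10 with the largest log2 fold change among those at 20 CPM or more in the higher group.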

Additional observations from a re-analysis of the deposited data

Results flagged for a closer look

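Of the imprinted genes, 3 had an effect of a knockout that differed between XX and XY gonads in the interaction test of edgeR over the somatic sums. For Cdkn1c, the log2 effect of losing the -KTS form was lower in XX than in XY by -1.76, and that of losing the +KTS form by -1.69. For H19 the differences were -1.83 and -1.89. For Peg10 the difference was -1.60 for the +KTS form. Both interactions were measured against the same 4 WT libraries, and all 3 genes were higher in XX WT than in XY WT. Only 1 of the 2 calls of the -KTS interaction was kept with the replicate block. In interstitial progenitor-like cells alone, 0 of 32 genes passed in either interaction. The share of pre-supporting-like cells moved with the groups as given above, and its part in these differences was not tested.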

How the results depend on the processing

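The 117 called results of single imprinted genes were recomputed under 1515 alternative settings in all: 1208 kept their direction and passed, 301 kept their direction without passing and 6 changed direction. All 6 came from interstitial progenitor-like cells alone: the log2 differences there were 0.0070 for Cdkn1c in XX +KTS KO against WT, 0.47 for Cdkn1c in XX -KTS KO against WT, -0.31 for Asb4 in XX -KTS KO against +KTS KO, -0.15 for Usp29 in XX WT against XY WT, and -0.24 for Mest and -0.0050 for Sgce in XY -KTS KO against +KTS KO. The cause was not tested.

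In the same cells the number of called genes against WT was 7 (XX) and 10 (XY) without the -KTS form and 0 (XX) and 1 (XY) without the +KTS form, 6 in XX and 5 in XY for -KTS KO against +KTS KO, 2 for XX WT against XY WT, and 0 in both interactions. Over all kept cells it was 4, 11, 2, 4 and 7 for XX -KTS KO, XY -KTS KO and XX +KTS KO against WT and for XX and XY -KTS KO against +KTS KO, and 1 for the -KTS interaction. DESeq2 called 8 genes for XX +KTS KO against WT, 5 for the -KTS interaction, and in XX germ cells against WT 3 without the -KTS and 2 without the +KTS form. Without the filter on low counts the calls were 4 for the -KTS interaction, and in germ cells 8 for XX -KTS KO, 2 for XX +KTS KO, 3 for XY -KTS KO and 4 for XY +KTS KO against WT and 8 for XX WT against XY WT. Without the clusters of low UMI count, an alternative added after seeing the clusters, no count moved by over 1.5 times.

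With 1 library left out, the calls ranged from 2 to 8 for XX -KTS KO, 7 to 10 for XY -KTS KO, 0 to 1 for XX +KTS KO and 3 to 6 for XY +KTS KO against WT, 7 to 13 and 8 to 12 for -KTS KO against +KTS KO in XX and XY, 3 to 6 for XX WT against XY WT, and 0 to 3 in each interaction. In germ cells they ranged from 0 to 1 for XX -KTS KO against WT, from 0 to 0 for XX +KTS KO against WT and 1 to 2 for XX WT against XY WT. The 31 calls of germ against somatic cells stayed 31 each time. The lone library of a group is then assumed to vary like the others.

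The replicate numbers were not stated to mark a shared litter or day. The correlation of the deviations of same-numbered libraries was not over 0.1 in every pair of groups: it ran from -0.403 to 0.479 over 15 pairs in somatic cells and from -0.486 to 0.463 in germ cells. XX WT, XY WT and XY -KTS KO deviated together in somatic cells (0.239, 0.479 and 0.463) and in germ cells (0.181, 0.266 and 0.463), while XY +KTS KO deviated against these 3 in both. A fit with the replicate block gave 1 call for the -KTS interaction and 0 for either knockout of XX germ cells, and moved no other count by over 1.5 times. In somatic cells it kept 5 of the 7 calls of XX WT against XY WT and 3 of the 5 of XY +KTS KO against XY WT.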
